A study of Mus musculus with 20 samples.

Results

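Kruppel-like factors were followed in endothelial cells sorted from mouse ears after contact hypersensitivity. The 8 genes were Klf2, Klf3, Klf4, Klf5, Klf6, Klf7, Klf9 and Klf10, chosen by name as a set called Kruppel-like factors of quiescent endothelium. The name of the set need not hold for each gene. Each was represented by the probe set that the platform annotation assigned to its symbol alone, and Klf7, which had a second such probe set, by the one with the higher mean over all arrays. They are 8 of the 22180 genes with at least 1 such probe set, of 41345 probe sets in all. Each of the 8 probe sets was among the 14886 probe sets, of 14178 genes, that passed the filter on low values.

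Gene expression was measured on 20 Affymetrix arrays of CD31+CD45-Ter119- cells from collagenase-digested ears, in 4 groups. Control mice gave 6 arrays from vehicle-treated and 6 from DNFB-treated ears. Mice carrying Pdgfb-CreERT2 and R26-NICD, called NICD mice here, gave 4 arrays from each. NICD is the intracellular domain of Notch1, which signals without ligand. DNFB, dinitrofluorobenzene, is a skin-sensitising hapten. The protocol, given once for all samples, states 5 daily tamoxifen injections, skin sensitisation on days 0 and 1, 1 ear application on day 5 and harvest 24 hours later. It states neither the vehicle, nor what vehicle animals received at sensitisation, nor the alleles of the control mice, nor age. The growth protocol names CDH5-iCre in place of the Pdgfb driver, and which driver was used was not settled. Both promoters drive Cre in endothelium, and Pdgfb is also made by platelets and their precursors. For NICD vehicle replicate 4 the description names DNFB where the title says vehicle, and the title was followed.

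Levels are given on the log2 scale of robust multi-array averaging (RMA), and differences are log2 differences with their SE. Adjusted p-values are Benjamini-Hochberg values of a limma model over all 14886 probe sets, called at 0.05. Nothing in the labels says how many animals stand behind an array, so the p-values measure the spread between arrays, which may in part be technical. Sex and a difference in overall array level cannot be told apart from genotype. Levels of Xist lay between 2.27 and 3.16 in control arrays and between 8.47 and 9.07 in NICD arrays, and the array medians lay between 3.87 and 3.98 and between 3.52 and 3.62. Genotype differences are therefore also given with each array centred on its own median. Centring aligns the medians only. The lowest value of an array lay between 0.41 and 0.59 in control arrays but between 1.18 and 1.30 in NICD arrays. Notch1, part of which the transgene encodes, averaged 9.82 and 9.76 in control vehicle and DNFB ears and 9.71 and 9.76 in NICD ears. It did not pass between genotypes as deposited (adjusted p = 0.445 in vehicle ears), and it was 0.37 higher in NICD DNFB ears after centring (adjusted p = 0.00688); which part of Notch1 its probes cover was not examined. Of the defining endothelial markers, Pecam1 (CD31) and Cdh5 (VE-cadherin) averaged between 11.48 and 12.01 in every group.

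Kruppel-like factors are transcription factors with 3 zinc fingers that bind GC-rich and CACCC elements. In endothelium, laminar shear stress activates the kinase chain MEKK3-MEK5-ERK5, which acts through MEF2 factors to induce Klf2 and Klf4. Both favour anticoagulant and vasodilator genes and restrain inflammatory ones, and inflammatory cytokines are known to lower Klf2. Klf9 is a direct target of the glucocorticoid receptor, Klf10 responds early to TGF-beta, Klf3 is a repressor that recruits CtBP, Klf6 responds to vascular injury, Klf7 is a broadly expressed activator, and Klf5 promotes growth in basal epithelium and smooth muscle.

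Klf2 and Klf4 are the pair that shear stress controls, so the 250 bases before their start sites are shown, as given by RefSeq on GRCm38.p6 and read along each gene's strand. Windows for 6 of the 8 genes were matched in that table (Klf2, Klf3, Klf4, Klf6, Klf7 and Klf9). Capitals mark matches on either strand to 1 of 4 motifs: the MEF2 type (CTA and TAG with 4 bases of any kind between them), the CArG box, TGGGAA (RBPJ core) and CCACCC (KLF core). The Klf2 window lies at chr8:72318812-72319061 on the plus strand and the Klf4 window at chr4:55532476-55532725 on the minus strand.
Klf2: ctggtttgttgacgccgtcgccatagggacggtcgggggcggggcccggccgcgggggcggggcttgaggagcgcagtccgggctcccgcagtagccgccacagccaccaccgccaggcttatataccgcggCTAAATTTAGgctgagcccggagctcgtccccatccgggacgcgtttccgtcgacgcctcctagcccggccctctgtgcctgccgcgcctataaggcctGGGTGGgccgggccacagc
Klf4: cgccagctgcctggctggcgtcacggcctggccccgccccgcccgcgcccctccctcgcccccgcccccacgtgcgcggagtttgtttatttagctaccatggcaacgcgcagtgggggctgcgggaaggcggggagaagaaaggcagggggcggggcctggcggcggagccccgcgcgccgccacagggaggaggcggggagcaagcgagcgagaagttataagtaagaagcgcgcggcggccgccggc

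The Klf2 window held 1 MEF2-type match, CTAAATTTAG, from 118 to 109 bases before the start. It is palindromic and so reads the same on both strands. Of 32851 windows of this length in the table, 3.20% held that motif on either strand. The Klf2 window also held 1 KLF core, on the opposite strand from 19 to 14 bases before the start, a motif found in 28.1% of windows. The Klf4 window held none of the 4 motifs, which says only that these letters are not in this window. The Klf3 and Klf7 windows each held 3 KLF cores, and those of Klf6 and Klf9 held none of the motifs. The CArG box and the RBPJ core were in none of the 6 windows, against 1.47% and 21.6% of all windows. The windows of Klf2 and Klf4, which fell by nearly the same amount after DNFB, are 71.2% and 74.0% G or C.

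In control mice, 6 of the 8 factors fell after DNFB, 1 rose and 1 did not pass the test. Klf2 and Klf4 dropped to about 52% of their vehicle level and Klf9 to 55.1%, with smaller falls of Klf7, Klf10 and Klf3. Klf5 rose, and Klf6 did not pass. In this comparison 47.2% of all 14886 probe sets passed, 23.6% lower and 23.7% higher. The members' median difference was -0.42, against -0.00 over all probe sets. In bulk arrays of a sorted fraction, fewer cells of a type and less RNA per cell cannot be told apart.

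**Figure D1:**
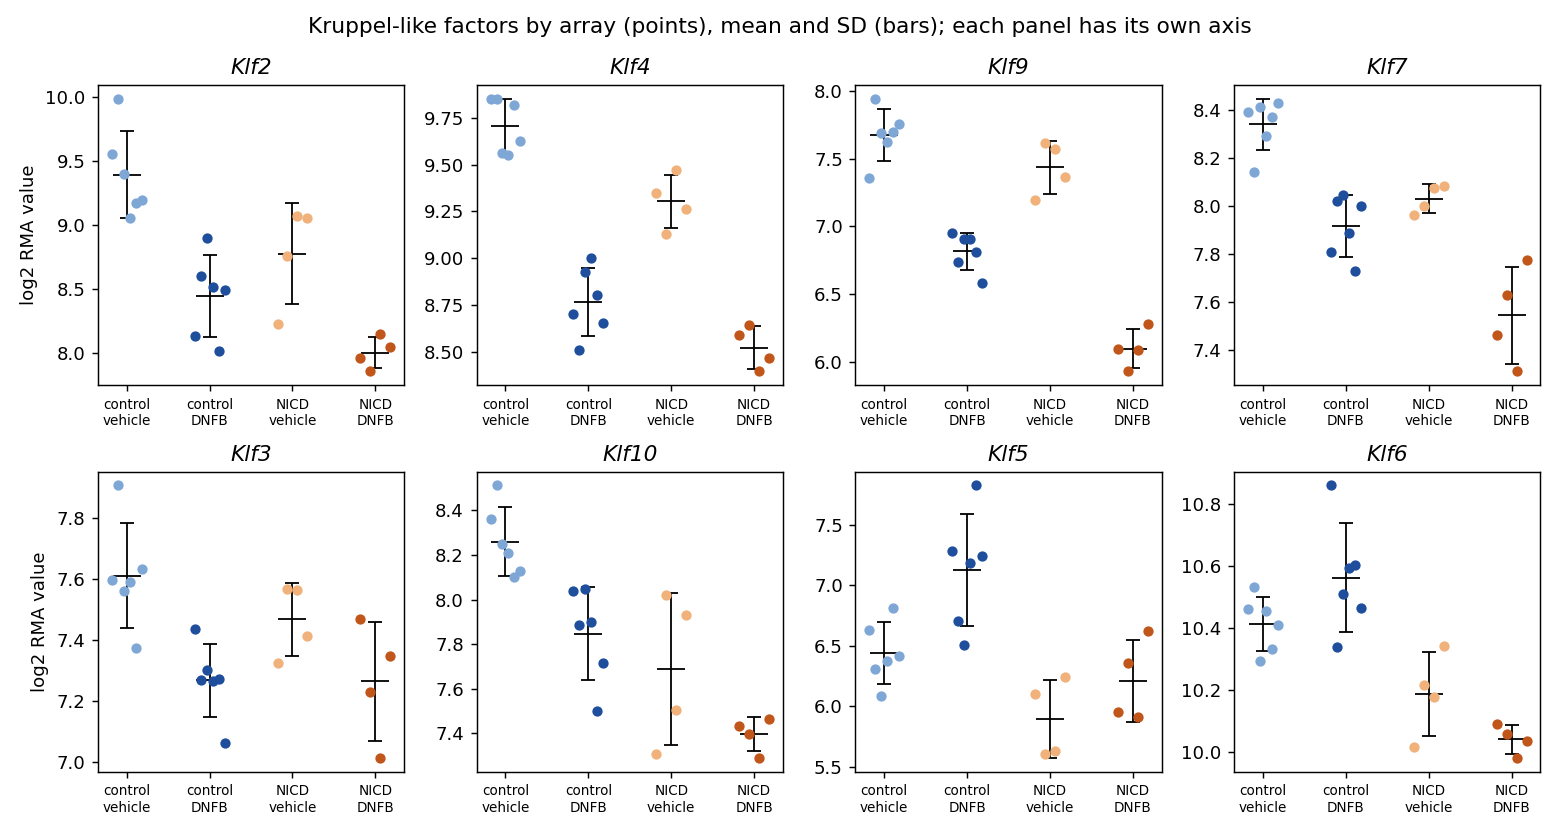
Log2 RMA value (vertical axis, own range in each panel) of the 8 Kruppel-like factors in each of the 20 arrays; points are arrays, horizontal bars the group mean, and whiskers the SD (n = 6, 6, 4 and 4). The DNFB points of Klf2, Klf4, Klf7 and Klf9 lie below all vehicle points of the same genotype, whereas the Klf5, Klf6 and Klf3 points overlap.

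Klf2, the shear-induced regulator of anticoagulant and anti-inflammatory endothelial genes, ran from 9.06 to 9.99 in control vehicle ears, with a median of 9.30. In control DNFB ears it ran from 8.02 to 8.90, with a median of 8.5. The 4 NICD vehicle arrays read 8.23, 8.76, 9.06 and 9.07, and the 4 NICD DNFB arrays 7.86, 7.97, 8.05 and 8.15. Every DNFB array was below every vehicle array of its genotype, by a margin of only 0.08 in NICD mice, where 1 vehicle array (replicate 1) was low. Klf2 fell by 0.95 ± 0.17 in control mice (adjusted p = 0.000136) and by 0.77 ± 0.21 in NICD mice (adjusted p = 0.00682). Of all probe sets kept, 6.68% had a lower difference than Klf2 in control mice and 9.34% in NICD mice.

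Klf4, the second ERK5-dependent factor, which also acts in the skin barrier, ran from 9.55 to 9.85 in control vehicle ears (median 9.72) and from 8.51 to 9.0 in control DNFB ears (median 8.75). In NICD mice the vehicle arrays read 9.13, 9.26, 9.35 and 9.47 and the DNFB arrays 8.39, 8.46, 8.59 and 8.64. The groups were far apart relative to their SD, which was 0.11 to 0.18. Klf4 fell by 0.95 ± 0.10 in control mice (adjusted p = 1.33e-07) and by 0.78 ± 0.12 in NICD mice (adjusted p = 3.05e-05). The gap between the lowest vehicle and the highest DNFB array was 0.55 in control and 0.49 in NICD mice.

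Klf9, the glucocorticoid-responsive member, ran from 7.36 to 7.94 in control vehicle ears (median 7.69) and from 6.58 to 6.95 in control DNFB ears (median 6.86). The NICD vehicle arrays read 7.19, 7.36, 7.57 and 7.61, and the NICD DNFB arrays 5.93, 6.09, 6.09 and 6.28. The NICD DNFB arrays were thus below every other array of the series. Klf9 fell by 0.86 ± 0.11 in control mice (adjusted p = 1.13e-06) and by 1.34 ± 0.13 in NICD mice (adjusted p = 1.08e-07). The second is a fall to 39.5% of the vehicle level, the only member difference past 2-fold in either genotype, and 2.71% of probe sets had a lower difference there.

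Klf7 ran from 8.14 to 8.43 in control vehicle ears (median 8.38) and from 7.73 to 8.05 in control DNFB ears (median 7.94). In NICD mice it read 7.96, 8.0, 8.08 and 8.08 in vehicle ears and 7.31, 7.46, 7.63 and 7.78 in DNFB ears. Its groups did not overlap in either genotype. It fell by 0.43 ± 0.09 in control mice (adjusted p = 0.000574) and by 0.49 ± 0.11 in NICD mice (adjusted p = 0.00145). The other Klf7 probe set averaged 3.97 to 4.21, near the level of odorant and pheromone receptor genes, whose 95th percentile was 3.90 in control vehicle ears and 3.47 in NICD vehicle ears. Its differences were -0.24 and 0.07 and did not pass, so the fall of Klf7 rests on 1 probe set.

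Klf10, the early TGF-beta response factor, ran from 8.10 to 8.51 in control vehicle ears (median 8.23) and from 7.5 to 8.05 in control DNFB ears (median 7.89). These 2 groups were separated by 0.05. In NICD mice the vehicle arrays were spread over 7.31, 7.5, 7.93 and 8.02, and the DNFB arrays read 7.29, 7.40, 7.43 and 7.46, so the groups overlapped. Klf10 fell by 0.41 ± 0.12 in control mice (adjusted p = 0.00937). In NICD mice its difference was -0.29 ± 0.15 (adjusted p = 0.139), and -0.42 (adjusted p = 0.0329) without NICD vehicle replicate 1, its lowest vehicle array.

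Klf3, the CtBP-recruiting repressor, ran from 7.37 to 7.91 in control vehicle ears (median 7.59) and from 7.06 to 7.44 in control DNFB ears (median 7.27), with overlap. The NICD vehicle arrays read 7.32, 7.41, 7.57 and 7.57, and the NICD DNFB arrays 7.01, 7.23, 7.35 and 7.47. Klf3 fell by 0.34 ± 0.10 in control mice (adjusted p = 0.0072), a modest shift that 25.6% of probe sets exceeded downward. In NICD mice the difference was -0.20 ± 0.12 (adjusted p = 0.208).

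Klf5, the growth-promoting member of basal epithelium, went the other way. It ran from 6.09 to 6.82 in control vehicle ears (median 6.4) and from 6.51 to 7.83 in control DNFB ears (median 7.21), and it rose by 0.69 ± 0.20 (adjusted p = 0.00641), with overlapping groups. In NICD ears it read 5.61, 5.63, 6.10 and 6.24 with vehicle and 5.91, 5.96, 6.36 and 6.62 with DNFB. That difference was 0.32 ± 0.24 and did not pass (adjusted p = 0.331). Klf5 had the widest spread of any member in control DNFB ears, an SD of 0.47.

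Klf6, the injury-responsive member, was nearly flat. Its control arrays ran from 10.29 to 10.53 with vehicle (median 10.43) and from 10.34 to 10.86 with DNFB (median 10.55). The NICD arrays read 10.01, 10.18, 10.22 and 10.34 with vehicle and 9.98, 10.03, 10.06 and 10.09 with DNFB. The differences were 0.15 ± 0.09 (adjusted p = 0.179) in control and -0.15 ± 0.11 (adjusted p = 0.315) in NICD mice. Their intervals run from -0.04 to 0.33 and from -0.37 to 0.08, so a 2-fold change in either genotype lies outside them. After cyclic loess, Klf6 passed as lower in NICD mice (-0.30, adjusted p = 0.0347).

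Across control mice, 5 of 8 members (Klf2, Klf4, Klf7, Klf9 and Klf10) had vehicle and DNFB groups without overlap, against 26.9% of all probe sets. In NICD mice 4 of 8 members fell (Klf2, Klf4, Klf7 and Klf9), none rose and 4 did not pass. There 38.1% of all probe sets passed, 18.1% lower and 20% higher. The same 4 members had groups without overlap, against 37.3% of all probe sets. The members' median was -0.39 in NICD mice, against 0.01 over all probe sets. With arrays centred on their medians, 7 members passed in control and 4 in NICD mice, against 46.5% and 37.5% of probe sets.

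**Figure D2:**
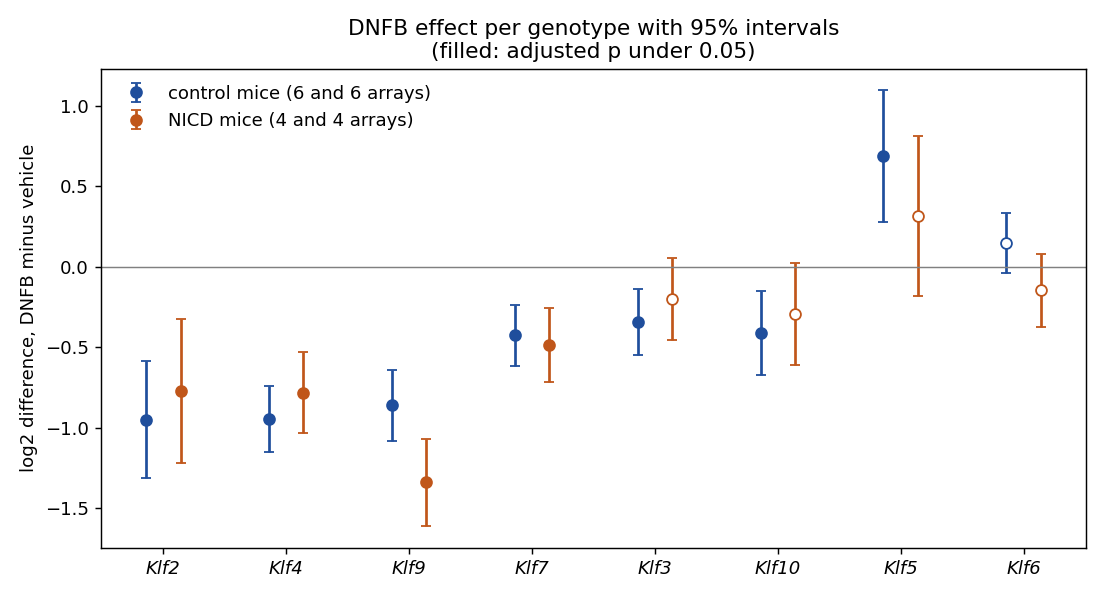
Log2 difference, DNFB minus vehicle, of each member in control mice (blue) and NICD mice (orange), with 95% intervals; filled points passed at an adjusted p of 0.05. Klf9 is the member whose estimates lie farthest apart, -0.86 in control and -1.34 in NICD mice, and Klf5 is the only one above 0 in both.

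Whether the response itself differed by genotype was tested as the difference of the DNFB effects, NICD minus control. Of the 8 members, 0 passed in limma, as did only 2 of all 14886 probe sets (0.0134%). At an unadjusted p under 0.05 there were 2 members, Klf9 and Klf6, and 1580 probe sets. The Klf9 difference of effects was -0.48 ± 0.17, with a 95% interval from -0.83 to -0.13 and an adjusted p of 0.312, which ranged from 0.170 to 0.478 over the alternatives. For Klf6 it was -0.30 ± 0.14, with an interval from -0.59 to -0.00 and an adjusted p of 0.462. The intervals were from -0.40 to 0.75 for Klf2 and from -0.16 to 0.49 for Klf4, so a larger fall of Klf4 in NICD mice by more than 0.16 lies outside its interval. For Klf5 the interval was widest, from -1.02 to 0.27. In all, no member's DNFB response was shown to differ between genotypes.

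Genotype itself was compared next, within vehicle ears and within DNFB ears. As deposited, 4 of 8 members were lower in NICD vehicle ears (Klf2, Klf4, Klf7 and Klf10) and none was higher. Of all probe sets 35.9% passed, 33% lower and 2.88% higher, so that 8.01% of those called were higher, and the median of all kept was -0.28. Groups did not overlap for Klf4, Klf7 and Klf10, 3 of 8, against 24.1% of probe sets. After centring, 0 of 8 members passed in limma, none even at an unadjusted p under 0.05, while 18.4% of all probe sets passed, 6.54% lower and 11.9% higher (64.5% of those called). No member was then free of overlap, against 14.9% of probe sets. The values as deposited were -0.62 for Klf2 (adjusted p = 0.0192), -0.57 for Klf10 (0.0039), -0.41 for Klf4 (0.00806) and -0.31 for Klf7 (0.0222). Centred, the same differences were -0.29, -0.24, -0.08 and 0.02. The Klf2 difference in vehicle ears also rested on 1 array: without NICD vehicle replicate 1 its difference was -0.43 (adjusted p = 0.0937). That array also decided Klf7 (-0.29, adjusted p = 0.0576), as did replicate 2 (-0.30, adjusted p = 0.0526), and without replicate 1 only 2 members passed. Leaving out any of control vehicle replicate 3, control DNFB replicates 3 and 5 and NICD vehicle replicate 4 brought Klf5 past the threshold (lowest adjusted p = 0.0346), as control vehicle replicate 1 did for Klf9 (0.0443).

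In DNFB ears, 5 of 8 members were lower in NICD mice as deposited, Klf5, Klf6, Klf7, Klf9 and Klf10, and 40.5% of all probe sets passed, 35.1% lower and 5.45% higher (13.4% of those called). After centring, 28.8% of probe sets passed, 8.12% lower and 20.7% higher (71.8% of those called). Past the threshold in limma were then 2 members, Klf9 lower and Klf3 higher. Klf9 was lower under both scalings, by -0.72 ± 0.12 as deposited (adjusted p = 0.000149) and -0.35 ± 0.12 centred (adjusted p = 0.0349). It was the 1 member that passed in the same direction under all 11 alternative filters, scalings, variance models and blocks and with each array left out; the 2-fold limit, tried separately, it did not pass. As deposited, the highest NICD DNFB value of Klf9, 6.28, was 0.30 below the lowest control DNFB value, 6.58, and after centring the groups overlapped by 0.0034. As deposited, Klf6, Klf9 and Klf10 were the 3 members whose groups did not overlap, against 25% of probe sets, and after centring there were 0, against 19.9%. Klf3 differed by -0.00 as deposited and was 0.37 ± 0.11 higher after centring (adjusted p = 0.0169). It did not pass after quantile normalization or cyclic loess (0.16 under each, adjusted p = 0.317 and 0.340). Klf5 differed by -0.91 as deposited (adjusted p = 0.0029) and by -0.54 centred (adjusted p = 0.0701). Klf6 differed by -0.52 as deposited (adjusted p = 0.000492) and by -0.15 centred (adjusted p = 0.269). After quantile normalization and cyclic loess Klf6 passed, at -0.51 and -0.52 (adjusted p = 0.00129 and 0.00107). Klf5 also passed under both of these, at -0.66 and -0.68 (adjusted p = 0.0304 and 0.0289). Klf2 and Klf4 passed in DNFB ears under neither scaling, at -0.44 and -0.24 as deposited and -0.07 and 0.13 centred. As deposited, Klf2 passed without control DNFB replicate 5 (adjusted p = 0.0403) and Klf4 without control DNFB replicate 2 (adjusted p = 0.0403). With replicate number as a fixed block Klf2 passed in DNFB ears (-0.54, adjusted p = 0.0332), and Klf7 did not in vehicle ears (-0.31, adjusted p = 0.0545).

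**Figure D3:**
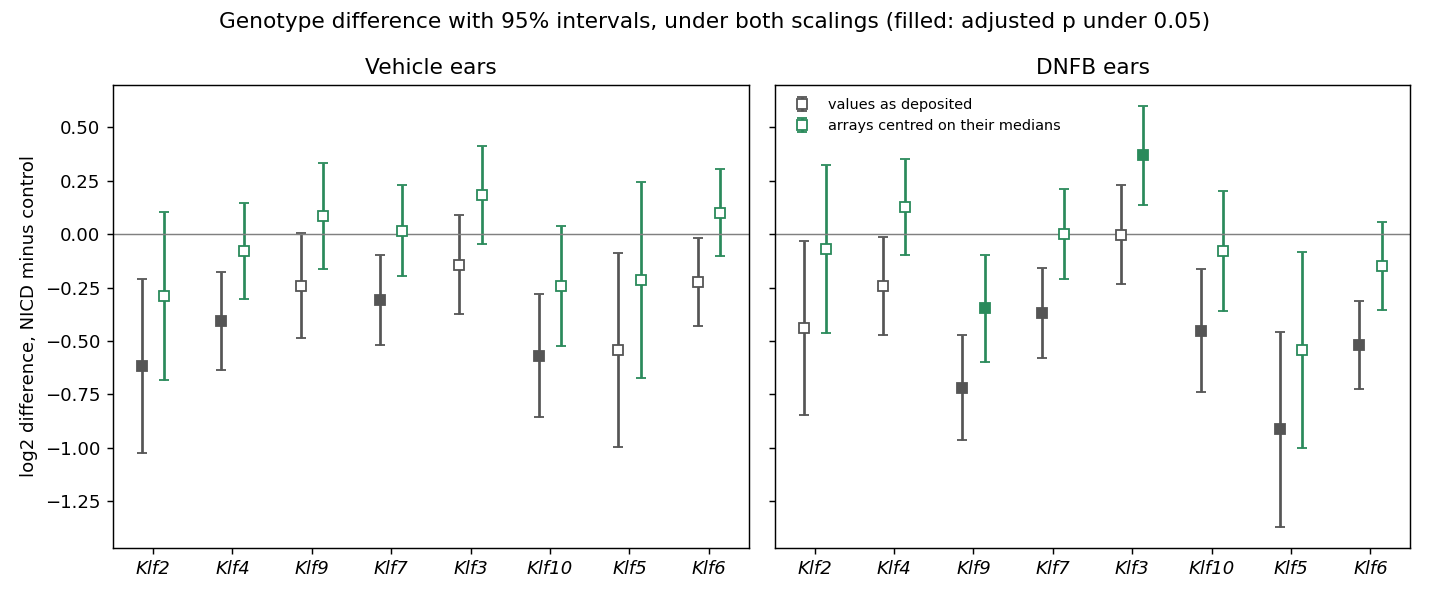
Log2 difference, NICD minus control, of each member in vehicle ears (left) and DNFB ears (right), with 95% intervals, for values as deposited (grey) and with each array centred on its median (green); filled squares passed at an adjusted p of 0.05. Every grey square lies at or below 0 and every green one higher than its grey partner; Klf9 in DNFB ears is filled below 0 in both colours.

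The members' nearest neighbours over the 20 arrays were taken from 13172 other named genes by Pearson correlation of centred values. Such correlations share the DNFB response and any difference between genotypes and are given as a description only. Nearest to Klf2 were Ddit4 (r = 0.910), an inhibitor of mTORC1, Scarb1 (0.909), the HDL receptor, and Sik1 (0.907), a salt-inducible kinase. Nearest to Klf4 were Nfia (0.967), Rasa4 (0.962) and Atp8a1 (0.961), and to Klf9 Net1 (0.959), Myrip (0.953) and Sema5a (0.950). Klf7 was closest to Rps6ka5 (0.942), the kinase MSK1, and Klf3 to Smagp (0.872) and Hdac7 (0.867), a histone deacetylase that binds MEF2 factors. The immediate early genes Ier2 (0.83) and Btg2 (0.83) led for Klf10. Klf5 was closest to Cenpl (0.891), a kinetochore protein, and Grhl3 (0.885), an epidermal transcription factor. The weakest leader was Pard6b for Klf6 (0.764), followed by Fam83h (0.745) and Cdh3 (0.732), the P-cadherin gene of basal epithelium.

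Within groups the members moved together only loosely. Deviations from the group means correlated above 0 in 18 of the 28 member pairs, with a median r of 0.17 over 20 arrays. The highest were Klf3 with Klf9 (0.60) and Klf2 with Klf10 (0.59), and the lowest was Klf2 with Klf5 (-0.50). Klf2 with Klf4, the shear-induced pair, gave 0.22, with 0.36 over the control and -0.11 over the NICD arrays. With the genotypes taken apart, 14 of the 28 pairs were above 0 in both. These values are a description, with no p.

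Markers of other cells moved with DNFB in the same sorted fraction. The mean level of 12 keratinocyte markers ran from 5.72 to 6.82 in control vehicle and from 6.86 to 8.75 in control DNFB arrays. In NICD mice it ran from 6.06 to 6.76 and from 7.15 to 7.75. Of the 12, 2 lay below the receptor background in control vehicle ears, 1 in NICD vehicle ears and 0 in DNFB ears. Those markers may have passed the filter through their DNFB level alone, so no share that rose is given. The median difference over the 12 was 0.44 in control and 0.0034 in NICD mice, so a few markers with large rises carried the mean. Not every marker rose: 2 of the 12 fell past the threshold in control mice and 1 in NICD mice. Of all probe sets, 23.6% and 18.1% passed lower in these comparisons. Krt14, a defining basal keratin, averaged 11.1 in control vehicle ears, far above the receptor background, and rose by 0.56 ± 0.19 in control mice (adjusted p = 0.0177). The stress keratin Krt16 went from 2.34, at background, to 8.28. Their part in the Klf5 and Klf4 results was not tested.

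**Figure D4:**
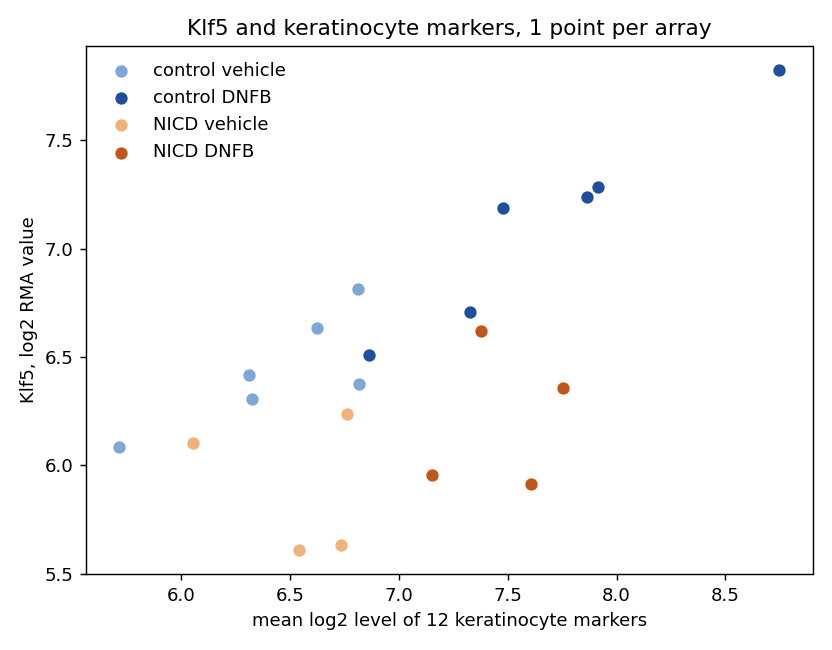
Log2 RMA value of Klf5 (vertical) against the mean log2 level of 12 keratinocyte markers (horizontal), 1 point per array, coloured by group. Control DNFB points span 6.86 to 8.75 on the horizontal and 6.51 to 7.83 on the vertical axis, with the highest of both in the same array. The NICD DNFB points lie to the right of the NICD vehicle points and overlap them on the vertical axis.

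Klf5 followed the keratinocyte markers from array to array in control mice. Deviations from the group means of Klf5 and of the marker mean correlated at r = 0.92 (rho = 0.80) over the 12 control arrays, and at r = 0.79 (rho = 0.65) without the 2 arrays farthest from the median. Over the 8 NICD arrays r was -0.06 (rho = -0.10). This pair was picked after 120 combinations of member and list had been computed, so it carries no p. Klf5 in those control arrays also gave r = -0.83 with the pan-endothelial mean. With the pericyte and smooth muscle mean it gave -0.67, and with the fibroblast mean 0.57. In the NICD arrays these were -0.29, 0.76 and 0.17. The relation in control arrays was thus not particular to keratinocyte markers. In the same 12 control arrays Klf2 gave r = -0.66 with the keratinocyte mean and 0.66 with the pan-endothelial mean, and in the 8 NICD arrays 0.72 and -0.58. Klf4 gave 0.02 and 0.01 with the keratinocyte mean in the control and NICD arrays.

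Pan-endothelial markers fell with DNFB too. In control mice 12 of 15 fell and none rose, with a median of -0.71, and in NICD mice 8 fell and 2 rose, with a median of -0.32. Their mean level ran from 10.1 to 10.3 in control vehicle and from 9.23 to 9.60 in control DNFB arrays. Beside these DNFB counts and those of the lists below, 23.6% of all probe sets passed lower and 23.7% higher in control mice. In NICD mice the shares were 18.1% and 20%. Pecam1 fell by 0.21 ± 0.07 in control mice (adjusted p = 0.017), and Cdh5 differed by 0.16 ± 0.09 (adjusted p = 0.147). Of 11 pericyte and smooth muscle markers 9 fell in control and 8 in NICD mice; Pdgfrb fell by 0.69 in control mice, and Acta2 differed by -0.00 (adjusted p = 0.991). The mean level of 12 neutrophil markers ran from 3.14 to 3.35 in control vehicle and from 4.31 to 5.25 in control DNFB arrays. Of these markers 11 lay below the receptor background in vehicle ears and 6 in DNFB ears, and S100a8 went from 3.20 to 8.19. The leukocyte gene Ptprc (CD45) went from 3.79 to 5.00, although the sort was on CD45-negative cells. The mean level of 12 macrophage and dendritic markers ran from 3.80 to 4.31 and from 4.57 to 5.47, with 8 and 2 of them below background. Of 7 T and NK markers, 6 and 5 were below background. Because most of these leukocyte markers lay below background in vehicle ears, passing the filter depended on their level in DNFB ears, and no share of them that rose is given. Fibroblast markers rose in 3 of 8 in control mice. Of 8 platelet and erythroid markers listed, 4 were measured, and all 4 rose in control mice. The part of these cell type markers in the falls of the members was not tested. Between genotypes, 5 of 6 lymphatic markers were higher in NICD vehicle ears and 4 in NICD DNFB ears, and 6 and 4 after centring. Of 15 pan-endothelial markers, 0 were higher and 2 lower in NICD vehicle ears, and 4 higher and 0 lower in NICD DNFB ears. After centring 4 and 13 of them were higher and 0 lower. Of all probe sets, 2.88% and 5.45% were higher and 33% and 35.1% lower as deposited. The shares after centring were 11.9% and 20.7% higher and 6.54% and 8.12% lower. The part of these markers in the genotype differences of the members was not tested. Prox1, the defining lymphatic marker, was 0.47 higher in vehicle ears as deposited (adjusted p = 0.101) and 0.79 higher centred (adjusted p = 0.0173). In DNFB ears it differed by 0.21 as deposited (adjusted p = 0.454) and by 0.59 centred (adjusted p = 0.0527).

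The rest of the KLF and SP family fell or did not pass. Of 17 further members measured, 12 were above the filter, and of these 6 fell in control mice and none rose, and 4 fell in NICD mice. Klf15, a glucocorticoid-induced metabolic regulator, went from 5.50 to 4.06 in control mice, a difference of -1.44 ± 0.18 (adjusted p = 1.4e-06), and fell by 1.42 ± 0.22 in NICD mice. Its control DNFB level was close to the 95th percentile of the receptor genes in that group, 3.90, so the size of this fall is less certain. Klf13 fell by 1.30 ± 0.15 and 0.97 ± 0.18, and Klf12 by 1.26 ± 0.27 and 0.87 ± 0.33. Klf11, the closest relative of Klf10, fell by 0.59 ± 0.14 in control mice and differed by -0.40 (adjusted p = 0.0698) in NICD mice. Sp4 fell in both genotypes, by 0.61 and 0.88. Klf8 fell by 0.46 in control mice and differed by 0.20 in NICD mice (adjusted p = 0.448), and the difference of the effects did not pass (adjusted p = 0.339). The other 6, among them the ubiquitous Sp1 and Sp3, did not pass in either genotype. The median over all 12 above the filter was -0.38 in control mice, against -0.42 for the 8 factors followed here.

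The genes upstream of Klf2 and Klf4 were divided. The list of 15 held genes of the MEKK3-ERK5-MEF2 path and its cerebral cavernous malformation (CCM) brake, with further regulators such as Hdac5, Hdac7 and Foxo1. Of the 15, 7 fell and 2 rose in control mice, and 7 fell and 3 rose in NICD mice. Mef2c, a MEF2 factor of endothelium, fell by 0.98 ± 0.10 (adjusted p = 8.53e-08) and 0.88 ± 0.12. Mef2a and Mef2d did not pass in either genotype, and neither did Mapk7, the gene for ERK5 (0.16 and 0.06). Map2k5, which encodes MEK5, fell by 0.49 and 0.52. The class IIa deacetylases that repress MEF2 also fell, Hdac7 by 1.23 and 0.69 and Hdac5 by 0.79 and 1.09. Of the CCM complex, whose loss raises Klf2 and Klf4, Ccm2 rose by 0.57 and 0.54 and Pdcd10 by 0.61 and 0.73, while Krit1 differed by 0.15 and -0.12 and did not pass. Foxo1 fell by 0.58 and 0.33. In these pairs the first value is from control and the second from NICD mice.

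Genes reported as induced by Klf2 or Klf4 did not all fall. Of 10 such genes, 5 fell and 3 rose in control mice, whereas 2 fell and 5 rose in NICD mice, a contrast of counts that was not tested as such. The angiopoietin receptor Tek fell by 1.97 ± 0.16 in control mice (adjusted p = 3e-09) and fell by 1.45 ± 0.19 in NICD mice, and the water channel Aqp1 fell by 1.21 and 0.98. Thbd, the thrombomodulin gene, fell by 0.76 in control mice and differed by -0.26 in NICD mice (adjusted p = 0.124). Nos3, the endothelial nitric oxide synthase gene, rose while Klf2 fell, by 0.55 ± 0.13 and 0.98 ± 0.16. Gja4, a connexin gene, fell by 0.42 in control mice and rose by 0.40 in NICD mice, yet the difference of its effects did not pass (adjusted p = 0.109). S1pr1, a lipid receptor of quiescent endothelium, fell by 0.33 in control mice and differed by -0.07 in NICD mice.

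Genes reported as repressed by Klf2 or Klf4 split evenly. Of 11 measured, 5 rose and 5 fell in control mice, and 6 rose and 2 fell in NICD mice. The chemokine gene Ccl2 rose by 3.24 ± 0.22 and 3.57 ± 0.27, tissue factor F3 by 3.00 and 2.18, and Il6 by 2.05 and 2.11. Ace, the angiotensin-converting enzyme gene, fell by 2.09 in control mice and fell by 1.62 in NICD mice. E-selectin (Sele), an inflammatory adhesion gene, fell by 1.65 in control mice (adjusted p = 2.89e-08) and differed by -0.45 in NICD mice (adjusted p = 0.0638). Kdr, the VEGF receptor, fell by 0.71 in control mice and differed by 0.02 in NICD mice. The difference of effects passed for neither, with adjusted p = 0.0839 for Sele and 0.0899 for Kdr.

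**Figure D5:**
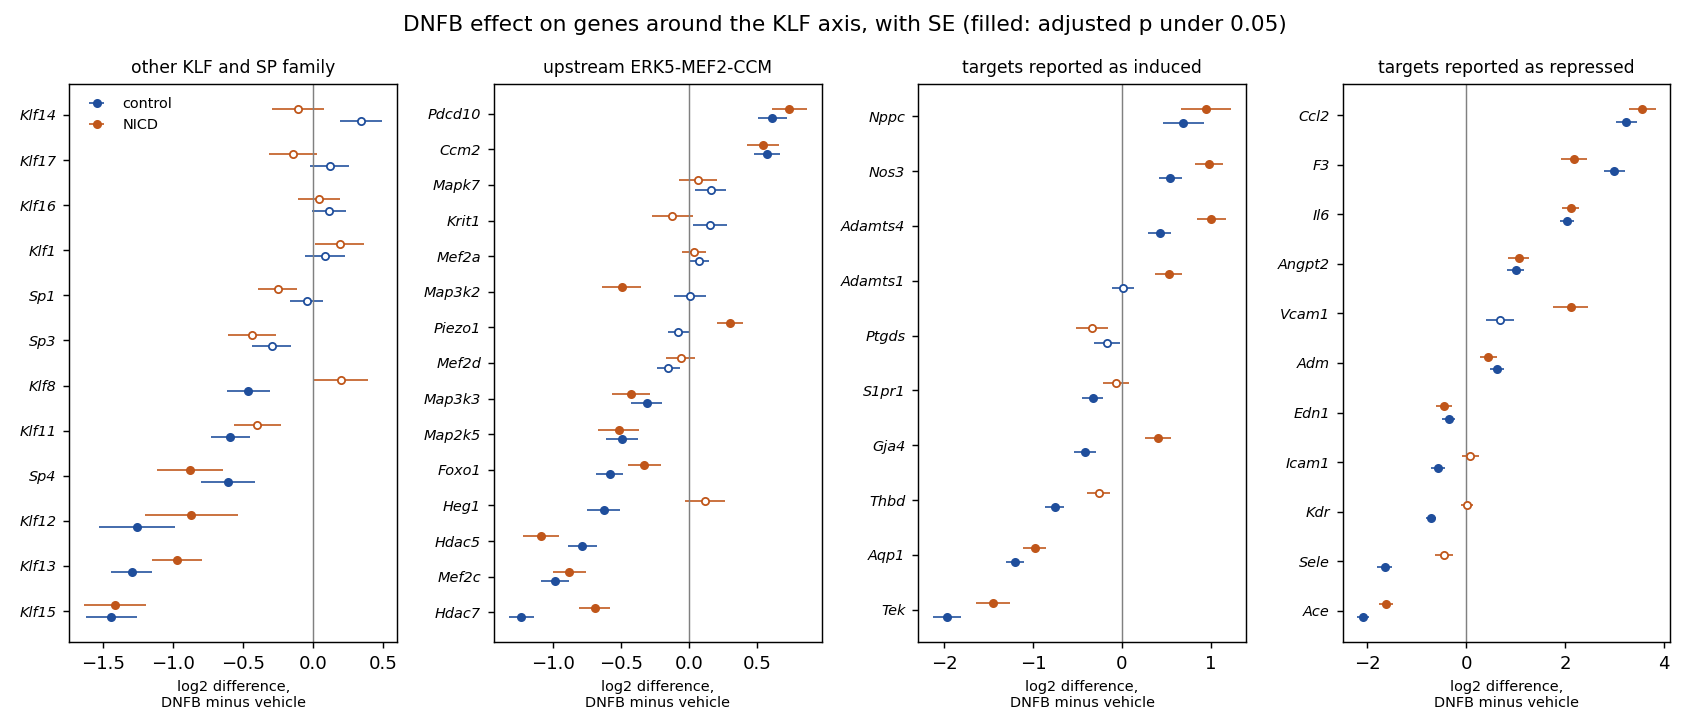
Log2 difference, DNFB minus vehicle, with SE, for genes above the filter in 4 lists around the KLF axis, in control (blue) and NICD mice (orange); filled points passed at an adjusted p of 0.05. Klf15, Hdac7, Tek and Ace have the lowest control values of their lists (-1.44, -1.23, -1.97 and -2.09), and Nppc, Pdcd10 and Ccl2 the highest of 3 of them.

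Glucocorticoid-responsive genes fell alongside Klf9 in part. Of 10, 5 fell and 2 rose in each genotype. Tsc22d3, the gene for GILZ, fell by 1.32 ± 0.16 and 1.23 ± 0.20, the clock gene Per1 by 1.03 and 1.01, and Zbtb16 by 1.5 and 2.37. Nr3c1, the glucocorticoid receptor itself, fell by 0.49 and 0.58, and Sgk1 by 0.47 and 0.37. The metallothioneins Mt1 and Mt2, which metals and inflammation also induce, rose by 1.35 and 1.89 in control mice. Fkbp5, another common glucocorticoid target, differed by -0.01 and -0.19 and did not pass.

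Immediate early genes, which include many that tissue dissociation is known to induce, were lower after DNFB. Of 23 measured, 13 fell and 4 rose in control mice, and 14 fell and 3 rose in NICD mice. Fosb fell by 1.18 and 1.10, Fos by 0.89 and 1.00, Zfp36 by 0.75 and 0.77, and Jun by 0.72 and 0.51. Ccn1 and Ccn2, targets of YAP, rose by 0.86 and 1.29 in control mice. Their mean level ran from 8.91 to 9.10 in control vehicle and from 8.60 to 8.97 in control DNFB arrays, and from 8.32 to 8.80 and from 8.14 to 8.5 in NICD arrays. Their part in the falls of Klf2, Klf4 and Klf10, which are themselves induced early by many stimuli, was not tested.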

How the data were processed

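Per the submitters' processing notes, the authors ran RMA in Affymetrix Expression Console, and the deposited values are its log2 output; versions, options and annotation are not given in the sources used here. Per the labels' protocols, 1 ng of total RNA was amplified per sample. No raw signals were used, and the number of arrays limits the precision.

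Symbols came from the platform annotation: 23521 probe sets had 1 symbol, 1814 several and 16010 none. Kept were those with 1 symbol and a value above the array's own median on at least 4 arrays (14886, of 14178 genes). Using limma 3.58.1 under R 4.3.3, all 20 arrays entered a single fit with a mean for each group, from which 5 comparisons were taken; the code was tested on simulated data. Figures used matplotlib 3.10.9 in Python 3.11.15. Groups came from titles. The background level is that of 1420 odorant, vomeronasal and trace amine receptor probe sets.

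The members, lists and alternatives were chosen with earlier results of these data known. Named genes are the 8 members, up to 6 genes per list and 3 per marker list with the smallest p among those passing in control mice, the defining markers, and the 3 genes most alike each member. Outside that rule, Mef2a, Mef2d, Mapk7, Map2k5, Krit1, Nppc, S1pr1, Nr3c1, Fkbp5, Sp1 and Sp3 were named after their values were seen. Alternatives were filters, normalizations, variance models, array weights, replicate blocks, a 2-fold limit and each array left out.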

Additional observations from a re-analysis of the deposited data

How the results depend on the processing

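The DNFB counts in control and NICD mice stayed at 7 and 4 members, or within 1 of these, under every alternative except the added limit of 2-fold, which left 0 and 1 members (1693 and 1619 probe sets). The genotype counts depended on scaling. For NICD against control in DNFB ears, 3 members passed after quantile normalization, 2 after centring and 3 after cyclic loess, and 0 with the 2-fold limit; probe sets numbered 3553 and 3539 after quantile normalization and cyclic loess and 801 with the limit. In vehicle ears 1, 0, 0 and 0 members passed (2412, 2741, 2326 and 503 probe sets), against 6 with trended and robust variances and 5 with array weights or only the groups compared, where Klf5 passed, as did Klf6 with trended and robust variances. The share of called probe sets that were higher was 50% and 42.3% after quantile normalization in DNFB and vehicle ears, and 52.1% and 50.5% after cyclic loess. Signs turned for Klf3 in DNFB ears (0.16 after quantile normalization, 0.37 centred, 0.16 after cyclic loess, 0.0044 with array weights) and in vehicle ears (0.0082, 0.18 and 0.048). Centring also turned Klf4 (0.13) and Klf7 (0.00065) in DNFB ears and Klf6 (0.10), Klf7 (0.017) and Klf9 (0.085) in vehicle ears. The other Klf7 probe set gave 0.31 for the difference of effects, 0.068 for DNFB in NICD mice and 0.086 between genotypes in DNFB ears. Centring removes only the shift of the array medians, and the cause of these changes was not tested.

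For the difference of effects, 0 members passed under any alternative, and the 2 probe sets became 1 with no filter, 0 with all probe sets, 1 after quantile normalization or cyclic loess, 27 with trended and robust variances, 17 with array weights, 1 with replicate number as a fixed block and 20 with genotype and number as a random block. Same-numbered vehicle and DNFB arrays of a genotype gave r of 0.04 to 0.27, above 0.1 in 5 of 10 pairs. In 6 of 10 the best match was their own number. Same-numbered control and NICD arrays gave -0.16 to 0.09. These are not correlations of whole arrays, which ran from 0.94 to 0.98 within groups. No label ties the numbers to animals, so the main fit has no block, and whether they pair the samples was not settled. With replicate number as a block, 7 and 4 members still passed for DNFB, and 6 and 3 between genotypes in DNFB and vehicle ears.

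With each array left out, the members passing ran from 7 to 7 and from 4 to 5 for DNFB in control and NICD mice, from 5 to 6 and from 2 to 5 between genotypes in DNFB and vehicle ears, and from 0 to 0 for the difference. The probe sets ran from 6674 to 7035, 5054 to 5792, 4852 to 6115, 4362 to 5525 and 0 to 29. Values that changed sign ran from -0.011 to 0.23 for Klf10, from -0.0077 to 0.27 for Klf2 and from -0.14 to 0.017 for Klf7 in the difference of effects, and from -0.071 to 0.082 for Klf3 between genotypes in DNFB ears.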
